A study of Mus musculus with 40 samples.

Results

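The genes described here are the Runx transcription factors and their nearest partners, 5 genes of the 22844 in the deposited table: Runx1, Runx2, Runx3, Cbfb and Runx1t1. They were picked by gene name and by no cut-off on measured values, though with earlier results of these data known. Runx1, Runx2 and Runx3 encode proteins that bind DNA through the Runt domain. Cbfb encodes the common partner, core binding factor beta, which does not bind DNA itself but steadies the binding of each RUNX protein. Runx1t1, also known as ETO, encodes a corepressor that is best known as the fusion partner of RUNX1 in a leukemia translocation. RUNX1 is needed for blood stem cell formation, RUNX2 for bone formation and RUNX3 for certain T cell and sensory neuron fates. In skeletal muscle, Runx1 is known as a gene that is switched on in fibers that lose their nerve, where it limits wasting.

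The study measured messenger RNA in the extensor digitorum longus (EDL), a fast muscle of the mouse hindlimb, to ask how lasting mTORC1 activity in muscle fibers changes expression in younger and older mice, and what short inhibition of mTORC1 does to those changes. mTORC1 is a kinase complex that drives growth and that the Tsc1 protein restrains through the small GTPase Rheb. There were 8 groups of 5 mice, with 1 library per mouse and 40 libraries in all. All mice carried floxed Tsc1 alleles and were labelled as strain Tsc1tm1Djk/J. Control mice (CON) were Tsc1fl/fl littermates without Cre recombinase. TSCmKO mice lacked Tsc1 in muscle fibers, and the promoter that drives Cre was not given in the sources used here. Mice were 3 or 9 months old and were injected intraperitoneally with vehicle or with the mTORC1 inhibitor rapamycin (RM) during the last 3 days. The vehicle groups were 3mCON, 3mTSCmKO, 9mCON and 9mTSCmKO, and the rapamycin groups were 3mCON+RM, 3mTSCmKO+RM, 9mCON+RM and 9mTSCmKO+RM. The labels give 4 mg per kg rapamycin and the study text a higher dose, so that the dose is uncertain.

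Libraries held 8883870 to 35224669 counts. Tsc1 itself lay at 24.4 to 35.8 CPM (counts scaled to library size) in 9mTSCmKO against 51.3 to 122 CPM in 9mCON, and at 26.5 to 30.7 CPM in 3mTSCmKO against 84.1 to 134 CPM in 3mCON, so that the groups did not overlap. RNA came from whole muscle, in which fewer cells of a type and less RNA per cell cannot be told apart. The summed level of 10 skeletal muscle fiber markers was 116114 to 134964 CPM in 9mTSCmKO and 181335 to 203983 CPM in 9mCON, with no marker at 0 in either group, and 169464 to 215554 CPM in 9mTSCmKO+RM. Of the 10, 4 were called lower in 9mTSCmKO than in 9mCON and 6 were not called, where 37.9% of all genes were called. The sum of 8 fibroblast and mesenchymal markers was 371 to 1226 CPM in 9mTSCmKO and 1090 to 2154 CPM in 9mCON. In 9mCON+RM the fibroblast sum was 196 to 851 CPM, with 7 of 8 markers lower than in 9mCON, and 9 of 11 macrophage and myeloid markers (summed 18.2 to 53.5 CPM) and 7 of 8 tendon markers were lower as well, where 11.8% of all genes were called. In 9mTSCmKO+RM against 9mCON, 6 of 8 fibroblast, 6 of 8 tendon and 6 of 11 myeloid markers were lower, where 31.9% of all genes were called. Under rapamycin in 9mTSCmKO 5 of 10 fiber markers were higher and 1 was lower, and 2 of 11 myeloid markers were lower, where 32.6% of all genes were called. In 3mTSCmKO+RM against 3mTSCmKO 5 of 10 fiber markers were higher and 1 was lower, where 23.6% of all genes were called, and the fiber sum was 186040 to 216050 CPM against 117837 to 204226 CPM. In that comparison 2 of 8 fibroblast, 2 of 8 tendon and 2 of 11 myeloid markers were higher. The part of these shifts in the values below was not tested. Inserts, by the labels, were of 175 to 239 nt in the younger mice and of 223 to 308 nt in the older ones, so that age and library preparation cannot be told apart.

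All 5 genes are protein-coding in GENCODE M21 (build GRCm38). Runx1 (ENSMUSG00000022952) lies at chr16:92601466-92826149 on the minus strand, Runx2 (ENSMUSG00000039153) at chr17:44495987-44814797 on the minus strand and Runx3 (ENSMUSG00000070691) at chr4:135120652-135177990 on the plus strand. Cbfb (ENSMUSG00000031885) lies at chr8:105170674-105217989 and Runx1t1 (ENSMUSG00000006586) at chr4:13743436-13893649, both on the plus strand. At most 1.36% of the distinct 31-base words of a member (Runx3) also stood in transcripts of another gene, and none did for Cbfb.

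RUNX genes commonly have a distal and a proximal promoter that yield proteins with different first residues. The 250 bases before annotated starts are shown for Runx1, with starts 128745 bases apart, and for Runx2 and the distal start of Runx3, because these 3 genes were the RUNX members whose levels were higher in 9mTSCmKO than in 9mCON. Sequences are from RefSeq (GRCm38.p6), which matched 4 of the 5 members by symbol. They run 5′ to 3′ on the gene's own strand. Capitals mark matches to the RUNX letters TGTGGT, read as ACCACA on the other strand, and to the E-box CANNTG, the kind of sequence bound by myogenic factors such as MYOD1. In Runx2 a match of each kind overlaps.
Runx1 distal, chr16:92826075-92826324, minus strand: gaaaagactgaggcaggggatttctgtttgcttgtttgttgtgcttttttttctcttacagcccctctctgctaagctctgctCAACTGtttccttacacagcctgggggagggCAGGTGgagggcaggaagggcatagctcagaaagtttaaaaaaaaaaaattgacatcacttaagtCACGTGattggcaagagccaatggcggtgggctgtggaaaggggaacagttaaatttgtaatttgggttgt
Runx1 proximal, chr16:92697330-92697579, minus strand: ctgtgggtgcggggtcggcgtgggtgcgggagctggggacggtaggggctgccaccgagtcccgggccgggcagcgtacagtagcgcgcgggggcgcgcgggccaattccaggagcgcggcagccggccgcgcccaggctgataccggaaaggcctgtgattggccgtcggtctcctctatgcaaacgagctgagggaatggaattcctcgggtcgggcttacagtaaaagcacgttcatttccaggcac
Runx2, chr17:44814628-44814877, minus strand: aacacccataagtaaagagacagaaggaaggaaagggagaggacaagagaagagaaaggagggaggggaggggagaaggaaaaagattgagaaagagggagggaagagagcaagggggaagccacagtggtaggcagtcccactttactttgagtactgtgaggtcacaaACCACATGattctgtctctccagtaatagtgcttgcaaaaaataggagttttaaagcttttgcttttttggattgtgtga
Runx3 distal, chr4:135120395-135120644, plus strand: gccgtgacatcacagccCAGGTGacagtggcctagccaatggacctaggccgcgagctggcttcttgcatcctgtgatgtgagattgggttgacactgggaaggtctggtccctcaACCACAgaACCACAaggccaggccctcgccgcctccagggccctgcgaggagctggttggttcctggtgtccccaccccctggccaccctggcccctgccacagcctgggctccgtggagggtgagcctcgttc

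The distal Runx1 window held 3 E-box matches and no RUNX letters, and the proximal one held neither. The Runx2 window held 1 match to TGTGGT and the distal Runx3 window 2, which stood 2 bases apart. The proximal Runx3 window and that of Cbfb held neither kind of match and are not printed. Among all 32851 promoter windows of this length, 14.0% held TGTGGT on either strand and 66.2% held CANNTG. The proximal Runx1 window was 67.6% G or C with 27 CpG pairs, while the distal one was 45.6% G or C with 2 CpG pairs. The median window of all promoters had 52.4% and 6 CpG pairs. These matches describe letters in the windows and were not tied to any value below. Counts per gene do not tell which start was used.

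Cbfb was by far the most abundant member and the RUNX genes were scarce. Levels between genes are compared in TPM, the deposited measure of transcripts per fixed total, which is per transcript length. Cbfb ranged from 37.6 to 149 TPM over the 40 libraries, with a median of 70.1 TPM. Runx1t1 had a median of 2.13 TPM, Runx1 of 1.78 TPM, Runx2 of 0.560 TPM and Runx3 of 0.287 TPM. Cbfb made up a median of 93.3% of the summed TPM of the 5 genes. Among the 3 RUNX genes Runx1 held the largest share in every group mean, from 59.3% in 3mTSCmKO to 83.7% in 9mTSCmKO. Runx2 was supported by only 7 to 64 counts per library and Runx3 by 2 to 41 counts.

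**Figure D1:**
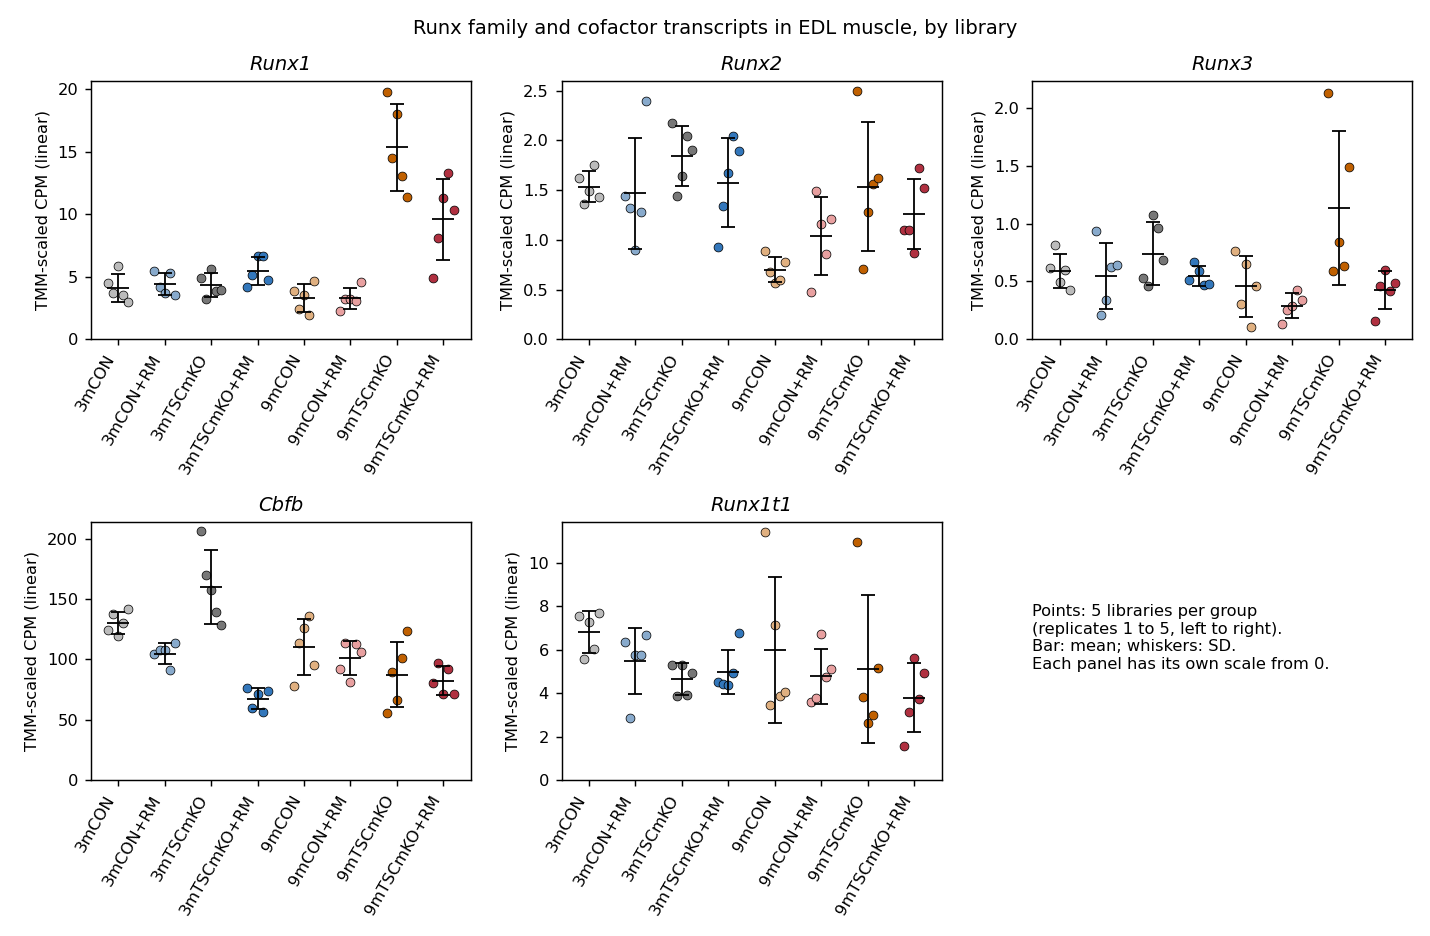
TMM-scaled CPM of each member (vertical axis, linear, from 0) in the 40 libraries of the 8 groups (horizontal axis), with points for libraries, a bar for the mean and whiskers for the SD of 5 libraries. Runx1 lies at 11.4 to 19.8 CPM in 9mTSCmKO, above every library of the 6 groups other than 9mTSCmKO+RM, and Cbfb is lowest in mean in 3mTSCmKO+RM, at 67.4 CPM.

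Of the 5 members, Runx1, Runx2, Cbfb and Runx1t1 passed the filter on low counts (1 CPM or more in at least 5 libraries). Runx3 did not, with 4 libraries at that level. The filter used CPM before scaling by TMM factors. Changes were tested with edgeR's quasi-likelihood test in 1 model of all 40 libraries. Fold changes are on the log2 scale with their standard error (SE), and p-values were adjusted by Benjamini-Hochberg over all 13543 genes tested, with 0.05 as the threshold. CPM were scaled by TMM factors, and a group is given by its mean ± SD (n = 5). Comparisons that share a group share its libraries, so that their values are not independent.

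Runx1 had the largest difference between 9mTSCmKO and 9mCON of the 5 members. Its level was 3.84, 2.41, 3.57, 1.91 and 4.65 CPM in replicates 1 to 5 of 9mCON and 19.8, 14.5, 18.0, 13.04 and 11.4 CPM in those of 9mTSCmKO. Every 9mTSCmKO library exceeded every 9mCON library. The mean rose from 3.28 ± 1.11 to 15.3 ± 3.47 CPM, a change of 2.22 on the log2 scale (SE 0.237, adjusted p = 1.1e-09), or 4.66-fold. In this comparison 37.9% of all genes tested were called, 19.1% higher and 18.9% lower.

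At 3 months no such difference was seen. Runx1 was at 4.48, 3.73, 5.82, 3.54 and 2.96 CPM in 3mCON and at 4.94, 3.20, 5.60, 3.84 and 3.96 CPM in 3mTSCmKO, and the groups overlapped. The log2 fold change was 0.05 (95% interval -0.42 to 0.53, adjusted p = 0.91), in a comparison that called 19.8% of all genes. The 2 genotype effects differed by 2.17 (SE 0.332, adjusted p = 6.64e-05, edgeR's quasi-likelihood test of the genotype by age interaction), where 4.94% of all genes were called. Within TSCmKO, Runx1 rose from 4.31 ± 0.955 CPM at 3 months to 15.3 ± 3.47 CPM at 9 months, a log2 change of 1.83 (SE 0.229, adjusted p = 1.5e-07), and the libraries did not overlap. With insert size as a term, in a fit without 9mTSCmKO+RM replicate 5, for which the labels give no insert size, this was 1.52 (adjusted p = 0.00252). In the same comparison 6 of 8 fibroblast, 6 of 7 adipocyte and 3 of 5 endothelial markers were lower, as were 6 of 8 tendon markers with 1 higher, where 37.4% of all genes were called, and their part in the Runx1 and Cbfb values was not tested. In CON the age difference was -0.33 (95% interval -0.82 to 0.15, adjusted p = 0.485). The age comparisons called 37.4% of all genes in TSCmKO and 1.02% in CON.

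Rapamycin for 3 days lowered Runx1 in 9mTSCmKO without bringing it to the control level. The 9mTSCmKO+RM libraries held 4.93, 8.07, 11.3, 13.3 and 10.4 CPM, of which 4 lay below every vehicle library of that genotype and replicate 4 lay within their range. The mean fell from 15.3 ± 3.47 to 9.60 ± 3.22 CPM, a change of -0.67 on the log2 scale (SE 0.22, adjusted p = 0.0168), among 32.6% of all genes called. Without 9mTSCmKO+RM replicate 1, the lowest library, the value was -0.52 (adjusted p = 0.0582) and the call was lost. It was also lost in a fit of only 9mTSCmKO and 9mTSCmKO+RM. Every treated library still exceeded every 9mCON library, and treated TSCmKO stood 1.55 above vehicle CON on the log2 scale (SE 0.237, adjusted p = 2.82e-06), where 31.9% of all genes were called. Against 9mCON+RM, at 3.27 ± 0.827 CPM, the difference was 1.55 (SE 0.238, adjusted p = 4.26e-06), where 20.6% of all genes were called.

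Rapamycin had no called effect on Runx1 in the other groups. The log2 fold change was -0.01 in 9mCON (95% interval -0.51 to 0.50), 0.10 in 3mCON (-0.38 to 0.58) and 0.35 in 3mTSCmKO (-0.11 to 0.81). These comparisons called 11.8%, 0.679% and 23.6% of all genes. The rapamycin effects in TSCmKO and CON at 9 months differed by -0.67 (95% interval -1.34 to 0.01, adjusted p = 0.249), so that a difference between genotypes was not shown, where 4.87% of all genes were called. The rapamycin effects on TSCmKO at the 2 ages differed by -1.02 (95% interval -1.67 to -0.38, adjusted p = 0.0751), where 1.91% were called. The genotype effect under rapamycin was 0.30 at 3 months (95% interval -0.17 to 0.77), and the difference from that at 9 months was 1.25 (adjusted p = 0.109), where 0.222% of all genes were called. Both of these differences between ages were added after the values were seen.

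In order of mean level, Runx1 stood at 15.3 CPM in 9mTSCmKO, at 9.60 CPM once these were treated, and at 5.48 CPM in 3mTSCmKO+RM. Then followed 4.43 CPM in 3mCON+RM, 4.31 CPM in 3mTSCmKO, 4.11 CPM in 3mCON, 3.28 CPM in 9mCON and 3.27 CPM in 9mCON+RM. Neighbours in this order overlapped in their libraries at every step, also 9mTSCmKO+RM, whose lowest library (4.93 CPM) lay within 3mTSCmKO+RM.

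**Figure D2:**
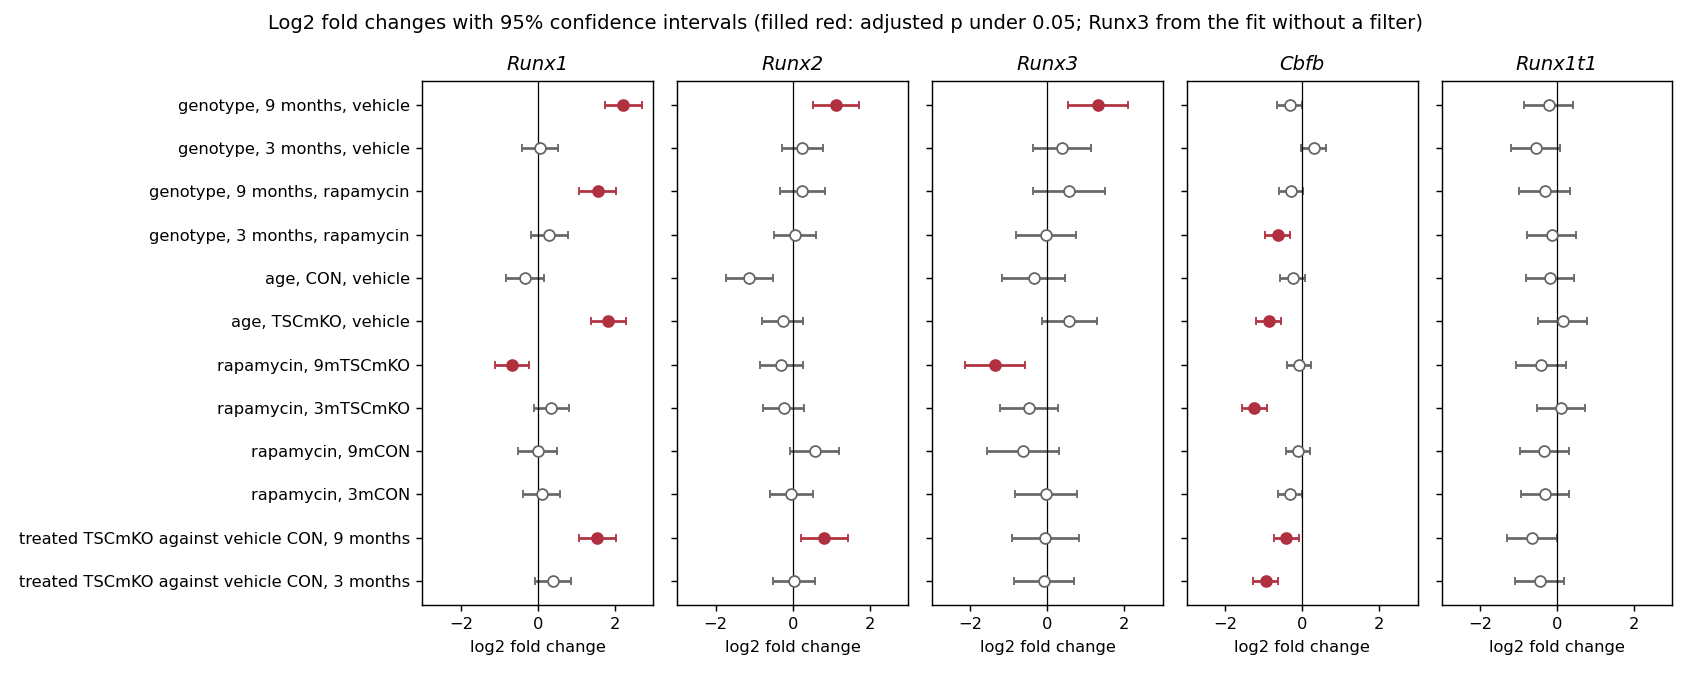
Log2 fold change (horizontal axis) with its 95% confidence interval for each member in the 12 comparisons between pairs of groups (vertical axis), with Runx3 from the fit without a filter. Filled red points passed an adjusted p of 0.05, as did Runx1 in the genotype comparison at 9 months at 2.22 and Cbfb in the rapamycin comparison in 3mTSCmKO at -1.25. Runx1t1 has no filled point.

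Runx2, the master regulator of osteoblast differentiation, was also higher in 9mTSCmKO. It lay at 0.886, 0.679, 0.569, 0.600 and 0.775 CPM in 9mCON and at 2.497, 0.706, 1.28, 1.56 and 1.62 CPM in 9mTSCmKO. Replicate 2 of 9mTSCmKO, with 12 counts, fell within the controls and the other 4 libraries exceeded them. On the log2 scale Runx2 rose by 1.12 (SE 0.296; adjusted p = 0.00282). Leaving out replicate 1 of 9mTSCmKO, the highest library, gave 0.87 (adjusted p = 0.0195). At 3 months the value was 0.25 (95% interval -0.28 to 0.79), and the genotype effects at the 2 ages differed by 0.86 (95% interval 0.06 to 1.67, adjusted p = 0.222).

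The 9mCON group had the lowest mean Runx2, at 0.702 ± 0.130 CPM. All 5 libraries of 9mCON lay below the 3mCON libraries, which held 1.62, 1.36, 1.49, 1.76 and 1.44 CPM. The age difference in CON was -1.12 (SE 0.297) with an adjusted p of 0.0503 by edgeR's quasi-likelihood test, just short of a call. It was called by DESeq2, by limma on log2(TPM + 0.1), with a term for replicate number and in 9 of 40 fits without 1 library. The age difference in TSCmKO was -0.26 (95% interval -0.80 to 0.28). The 9mTSCmKO mean of 1.53 ± 0.649 CPM was close to that of 3mCON, at 1.53 ± 0.156 CPM. The means of the other groups were 1.84 ± 0.300 CPM in 3mTSCmKO, 1.58 ± 0.448 CPM in 3mTSCmKO+RM, 1.47 ± 0.559 CPM in 3mCON+RM and 1.04 ± 0.388 CPM in 9mCON+RM, all with overlapping libraries. The rapamycin difference for Runx2 was -0.29 in 9mTSCmKO (95% interval -0.86 to 0.27) and 0.57 in 9mCON (-0.06 to 1.20), neither of which passed the test. The 9mTSCmKO+RM mean of 1.26 ± 0.35 CPM was above that of vehicle 9mCON by 0.82 (SE 0.305, adjusted p = 0.0348). That call was lost without any 1 of 9mCON replicates 2, 3 and 4 and 9mTSCmKO+RM replicates 4 and 5, down to 0.70 (adjusted p = 0.103) without 9mTSCmKO+RM replicate 4.

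Of 12 skeletogenic genes, which mark bone and cartilage cells and include known RUNX2 targets, 6 passed the filter. Between 9mTSCmKO and 9mCON, 3 were higher, 1 was lower and 2 did not pass the test, where 37.9% of all genes were called. The median of the 6 was 0.65 on the log2 scale, beside -0.02 over all genes tested. Dmp1, a matrix protein of bone and dentin, rose by 2.60 (adjusted p = 2.15e-06) and Alpl, the alkaline phosphatase of mineralizing cells, was lower, at -1.55 (adjusted p = 9.95e-10). Under rapamycin in 9mTSCmKO 1 of the 6 rose and 3 fell, where 32.6% of all genes were called. The summed level of the 12 genes was 26.8 to 44.7 CPM in 9mTSCmKO and 29.5 to 37.7 CPM in 9mCON. The osteoblast factor Sp7 had no count in any library of either group, Bglap and Col10a1 had none in 9mCON, and the part of such cells in the Runx2 values was not tested.

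Runx3, the third family member, was too scarce for the filtered test and was taken from a fit of all 22597 genes with a count. It lay at 0.768, 0.302, 0.650, 0.109 and 0.465 CPM in 9mCON, on 2 to 13 counts, and at 2.13, 0.588, 0.838, 0.635 and 1.49 CPM in 9mTSCmKO, on 10 to 41 counts. The groups overlapped, with 9mTSCmKO replicates 1, 3 and 5 above every control library. In that fit Runx3 rose by 1.31 (SE 0.388, adjusted p = 0.00967), where 24.2% of all genes were called. Rapamycin in 9mTSCmKO took it to 0.156, 0.461, 0.598, 0.414 and 0.488 CPM, a change of -1.37 (SE 0.389, adjusted p = 0.00892), where 18.8% of all genes were called. Both calls were lost without 9mTSCmKO replicate 1, with 0.99 (adjusted p = 0.0568) and -1.03 (adjusted p = 0.0579). They were also lost in fits of only the groups compared. Treated TSCmKO differed from vehicle 9mCON by -0.06 (95% interval -0.93 to 0.82). The 4 groups at 3 months had means of 0.544 to 0.741 CPM, and 9mCON+RM had 0.290 ± 0.108 CPM. None of the other comparisons between pairs of groups called Runx3 in this fit.

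9mTSCmKO replicate 1 held the highest Runx1, Runx2, Runx3 and Runx1t1 levels of its group, and the lowest Cbfb level. RUNX3 is well known in T and NK cells, and the summed level of 12 T and NK cell markers in that library was 8.17 CPM, against 4.04 to 5.38 CPM in the rest of 9mTSCmKO and 2.43 to 5.85 CPM in 9mCON. Of these markers only Cd3d, a subunit of the T cell receptor complex, passed the filter, and it was higher in 9mTSCmKO (log2 fold change 0.95, adjusted p = 0.0448). That filter takes 1 CPM in as few as 5 libraries, so that Cd3d may have passed it through 9mTSCmKO. No marker of that list was at 0 in all libraries of either group. In 9mTSCmKO+RM, where Runx3 was lower, the sum of the 12 markers was 2.11 to 4.83 CPM. The part of T and NK cells in the Runx3 values was not tested. The summed level of 11 macrophage and myeloid markers was 60.02 to 115 CPM in 9mTSCmKO and 68.3 to 192 CPM in 9mCON, with Cd68 higher (1.80), Cd163 lower (-1.07) and 9 not called, where 37.9% of all genes were called.

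Cbfb, the shared beta subunit, changed in another pattern, with its largest change at 3 months. It was at 206, 170, 157, 139 and 128 CPM in 3mTSCmKO and at 76.5, 59.9, 71.0, 56.2 and 73.4 CPM in 3mTSCmKO+RM. The groups were far apart, with the highest treated library below the lowest vehicle library. The mean fell from 160 ± 30.6 to 67.4 ± 8.87 CPM, a change of -1.25 on the log2 scale (SE 0.159, adjusted p = 1.61e-07), or 2.37-fold lower. In 3mCON, vehicle libraries held 120 to 142 CPM and rapamycin libraries 90.8 to 113 CPM. These did not overlap either, but the change of -0.32 did not pass the test (95% interval -0.63 to 0.00, adjusted p = 0.56) in the fit of all libraries. In a fit of these 2 groups alone by edgeR it was -0.31 (adjusted p = 0.0453). The rapamycin effects in the 2 genotypes differed by -0.93 (SE 0.222, adjusted p = 0.0116), where 3.45% of all genes were called. By limma on log2(TPM + 1) the difference was -0.82 (adjusted p = 0.0645) and was not called.

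Under rapamycin Cbfb was lower in 3mTSCmKO+RM than in 3mCON+RM (log2 fold change -0.64, SE 0.158, adjusted p = 0.00566), where 10% of all genes were called. Against vehicle 3mCON the difference was -0.95 (SE 0.158, adjusted p = 2.63e-05), where 16.7% of all genes were called. Without rapamycin the genotype effect at 3 months was 0.30 (95% interval -0.02 to 0.61, adjusted p = 0.192). Of the 8 groups, 3mTSCmKO had the highest mean and 3mTSCmKO+RM, which were other mice, the lowest.

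At 9 months Cbfb did not respond in this way. Vehicle 9mTSCmKO held 55.8, 89.8, 66.5, 101 and 123 CPM and 9mTSCmKO+RM held 79.97, 97.2, 71.6, 92.4 and 70.9 CPM, with overlapping groups and a log2 fold change of -0.08 (95% interval -0.40 to 0.23). The rapamycin effects at the 2 ages in TSCmKO differed by 1.16 (SE 0.222, adjusted p = 0.00346), where 1.91% of all genes were called. This comparison was added after the values were seen. The genotype effect at 9 months was -0.33 (95% interval -0.65 to -0.01, adjusted p = 0.0933), and it passed the test without 9mCON replicate 1 (-0.41, adjusted p = 0.0393) and without 9mTSCmKO replicate 5 (-0.49, adjusted p = 0.0132). Cbfb fell with age in TSCmKO, from 160 ± 30.6 to 87.3 ± 27.0 CPM (-0.87 on the log2 scale, SE 0.157, adjusted p = 4.99e-05), and was -0.64 with insert size as a term, again without 9mTSCmKO+RM replicate 5 (adjusted p = 0.0317). The markers of other cell types that were lower at 9 months, given with Runx1, move with this change too. The age difference in CON, from 130 ± 9.10 to 110 ± 23.2 CPM, was -0.25 (95% interval -0.57 to 0.07). Rapamycin in 9mCON, at 101 ± 14.1 CPM, gave a difference of -0.12 (95% interval -0.43 to 0.20). Treated TSCmKO at 9 months was lower than vehicle CON by the main test (-0.41, SE 0.157, adjusted p = 0.0401), but 7 of the 40 fits without 1 library lost that call. The weakest of these, without 9mCON replicate 4, gave -0.33 (adjusted p = 0.133), and the others lacked 9mCON replicates 2 or 3, 9mCON+RM replicate 1, or 9mTSCmKO+RM replicates 1, 3 or 5.

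Fewest Cbfb transcripts per RUNX transcript were measured in 9mTSCmKO. In TPM, Cbfb stood at 47.1 ± 27.3 per transcript of the 3 RUNX genes in 9mCON (24.1 to 91.1) and at 8.06 ± 3.74 in 9mTSCmKO (3.83 to 12.8). It was 12.7 ± 4.87 in 9mTSCmKO+RM and 15.9 ± 5.37 in 3mTSCmKO+RM. The other 4 groups had means from 27.9 in 3mCON+RM to 39.9 in 3mTSCmKO. These ratios are of RNA and describe no protein.

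**Figure D3:**
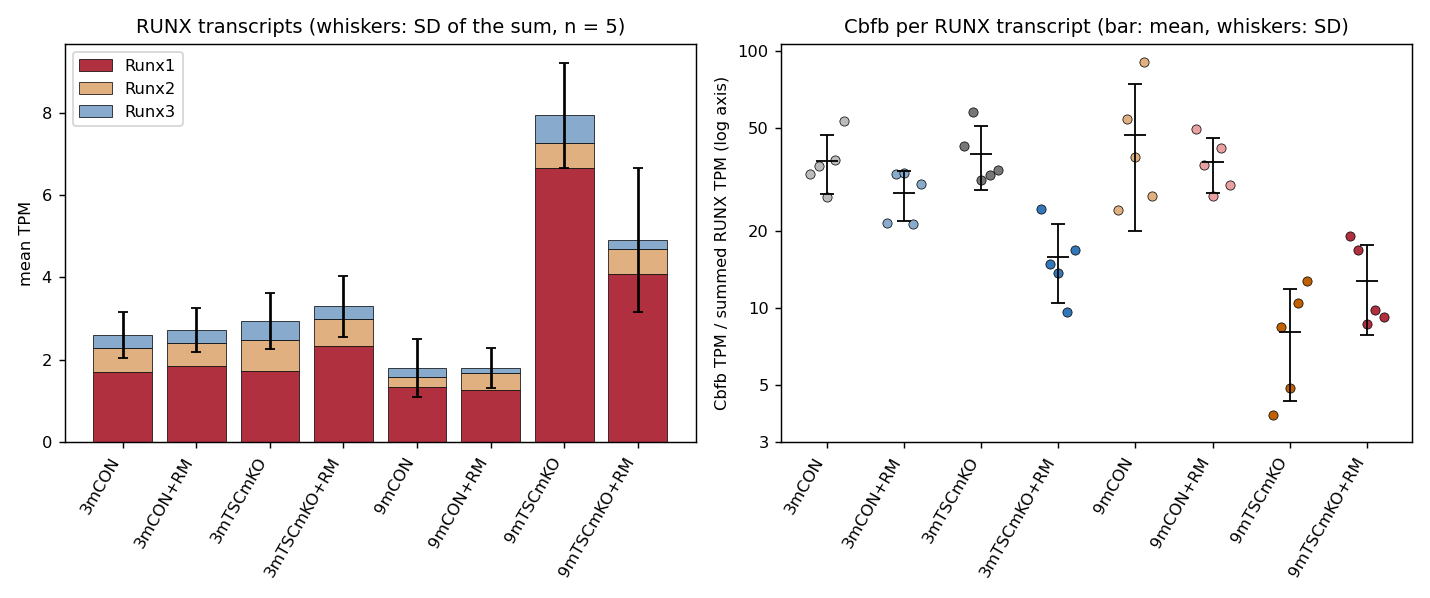
Left, mean TPM of Runx1, Runx2 and Runx3 stacked (vertical axis, from 0) in the 8 groups, with the SD of their sum over 5 libraries. Right, Cbfb TPM divided by the summed RUNX TPM (log axis) per library with mean and SD. The sum is highest in 9mTSCmKO, at 7.94 TPM, where the ratio is lowest, at 8.06.

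Runx1t1, the corepressor, passed the test in none of the 12 comparisons between pairs of groups and in none of the 5 interactions. Its levels were 7.56, 5.55, 7.27, 6.01 and 7.69 CPM in 3mCON and 5.27, 3.85, 5.29, 3.90 and 4.93 CPM in 3mTSCmKO. These groups did not overlap, but the log2 fold change of -0.55 had an adjusted p of 0.225 (95% interval -1.18 to 0.08) in the fit of all libraries, and of 0.0101 in a fit of these 2 groups alone by edgeR. At 9 months 1 library of each vehicle group stood high. Replicate 1 of 9mCON had 11.4 CPM, against 3.47 to 7.15 CPM in the rest of its group, and replicate 1 of 9mTSCmKO had 10.98 CPM, against 2.63 to 5.16 CPM. The genotype difference at 9 months was -0.22 (95% interval -0.85 to 0.41), and it went from -0.70 (adjusted p = 0.0598) without that 9mTSCmKO library to 0.19 (adjusted p = 0.673) without that 9mCON library. Over all 8 groups the means ran from 3.79 ± 1.58 CPM in 9mTSCmKO+RM to 6.82 ± 0.971 CPM in 3mCON. Treated TSCmKO and vehicle CON at 9 months differed by -0.64 (95% interval -1.29 to 0.01, adjusted p = 0.125). Without 1 library this difference ran from -0.83 to -0.25 and was never called.

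The cofactors of these proteins are corepressors, coactivators and partner factors that bind or modify RUNX proteins. Of 26 RUNX partners and regulators, all of which passed the filter, 4 were higher, 3 were lower and 19 were not called in 9mTSCmKO against 9mCON, with a median log2 fold change of -0.13 beside -0.02 over all genes. Here 37.9% of all genes tested were called, 19.1% higher and 18.9% lower, so that 7 of 26 is no result particular to these genes. The count of 7 was 12 without 9mCON replicate 2 and 4 without 9mCON replicate 5. Mef2c, a transcription factor of muscle genes, was the highest of those called (0.91, adjusted p = 3.5e-05). Among those called lower were the acetyltransferases Ep300 (-0.61, adjusted p = 0.00575) and Kat6a (-0.49, adjusted p = 0.00742), named here after their values were seen. Under rapamycin in 9mTSCmKO, 5 of the 26 rose and 2 fell, where 15.8% of all genes were called higher and 16.8% lower. That count of 7 was 4 without 9mTSCmKO replicate 3 and 3 without 9mTSCmKO+RM replicate 3. The shares of all genes in this paragraph are from the fit of all 40 libraries, and those of the fits without 1 library are not given.

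Among 12 paralogues and partners of Runx1t1, 2 were higher, 1 was lower and 9 were not called in 9mTSCmKO against 9mCON, with a median of -0.14, where 37.9% of all genes were called. Cbfa2t2, a paralogue, was the highest of those called (0.57, adjusted p = 0.00385). Under rapamycin in 9mTSCmKO, 4 rose and 1 fell, where 32.6% of all genes were called. This count of 5 was 3 without 9mTSCmKO replicate 3 or without 9mTSCmKO+RM replicate 3. Here too the shares of all genes are from the fit of all 40 libraries.

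Genes of the denervation response, the setting in which muscle Runx1 is best known, mostly differed in the same comparison. Of 18 such genes tested, with Runx1 itself not listed, 13 were higher, 3 were lower and 2 were not called in 9mTSCmKO against 9mCON, where 19.1% of all genes were called higher and 18.9% lower. Their median log2 fold change was 0.71, while their summed level had the lower mean in 9mTSCmKO, at 3323 ± 607 CPM against 3607 ± 772 CPM. The perinatal myosin gene Myh8, with a mean of 1667 CPM in 9mTSCmKO and 2662 CPM in 9mCON, made up most of that sum and was among the 3 called lower. Chrng, the fetal acetylcholine receptor subunit, had a mean of 0.12 CPM in 9mCON and 3.32 CPM in 9mTSCmKO (adjusted p = 1.17e-08). Myog, a myogenic transcription factor, rose by 0.996 (adjusted p = 0.0416), and Chrne, the adult receptor subunit, was the lowest of those called (-0.91, adjusted p = 8.35e-05). At 3 months 5 were higher, 3 were lower and 10 were not called, with a median of -0.40, where 19.8% of all genes were called. Under rapamycin in 9mTSCmKO 9 fell and 3 rose, where 16.8% of all genes were called lower and 15.8% higher. Chrng fell to a mean of 0.342 CPM (adjusted p = 1.65e-06), while Myog rose by 1.30 (adjusted p = 0.00488). The Chrng means in 9mCON and 9mTSCmKO+RM lay below the filter's 1 CPM, so that it may have passed through 9mTSCmKO alone. In a fit of only 9mTSCmKO and 9mCON, 10 of the 18 were called in place of 16. That fit called 2710 of the 13543 genes tested, beside 5133 in the fit of all groups. This list was drawn up with results of these data known, and its counts are a description.

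The genes most like each member over the 8 group means were found by the root mean square difference of their log2 mean CPM, each centred on its mean over the groups. Among 9638 genes, those nearest to Runx1 were 2810474O19Rik (difference 0.19), Carhsp1 (0.25), Cyb5r3 (0.26), Cyfip2 (0.26) and Casq2 (0.27). All 5 had their highest mean in 9mTSCmKO, as did Runx1, with 99.3 CPM for 2810474O19Rik and 82.5 CPM for Casq2, the cardiac and slow muscle form of the calcium store protein calsequestrin. Nearest to Runx2 were Bmp4 (0.18), a bone morphogenetic protein, Raph1 (0.18) and Gfod1 (0.19), which were lowest in 9mCON. Nearest to Cbfb were Homer1 (0.13), a scaffold protein, Ppp1r3a (0.14), the glycogen-targeting subunit of protein phosphatase 1, and Dyrk2 (0.14), a kinase. These 3 had their highest mean in 3mTSCmKO, as Cbfb did. The shared highest and lowest groups follow from the choice by likeness and are no separate result.

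**Figure D4:**
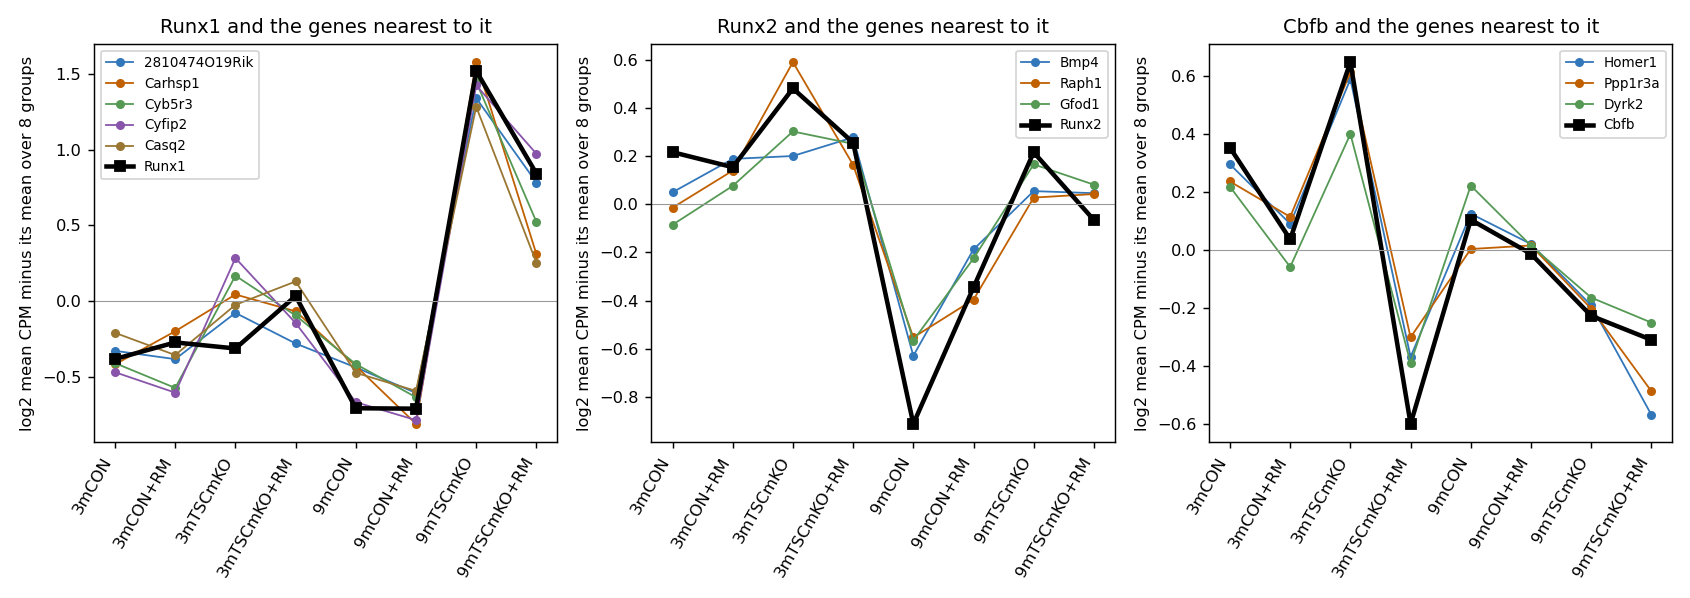
Centred log2 mean CPM (vertical axis) over the 8 groups (horizontal axis) of Runx1, Runx2 and Cbfb (black) and of the genes nearest to each (colors), lines joining groups as a guide only. Runx1 and its 5 nearest genes, chosen for a like pattern, peak in 9mTSCmKO, and Homer1, at a difference of 0.13, follows Cbfb most closely.

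Counts and TPM of a gene together give the mean length of the transcripts that its reads were assigned to, once a constant per library is taken from 239 genes with 1 annotated transcript. For Runx1 this mean length was 4037 to 4853 nt over the 40 libraries, with 4293 ± 165 nt in 9mTSCmKO and 4492 ± 269.7 nt in 9mCON. Cbfb kept to 2530 to 2753 nt, and all 20 libraries at 9 months lay at 2711 nt or more. Runx2, at 2984 to 6287 nt, and Runx3, at 2041 to 4515 nt, varied most, on few counts. For Runx1t1 it was 3546 to 5233 nt, with 4138 ± 261 nt in 3mTSCmKO and 4783 ± 181 nt in 9mTSCmKO. Inserts were also longer at 9 months, and the part of insert size in these lengths was not tested.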

How the data were processed

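Poly(A) RNA from whole EDL muscle was sequenced by the authors as stranded single-end reads. Per the labels and the study's methods, the authors trimmed adapters with Cutadapt 1.9.1 and assigned reads with kallisto 0.43.1 to Ensembl transcripts of GRCm38, a read that matched several transcripts being shared among them. The deposited tables hold expected counts per gene and TPM that the authors derived from them with transcript lengths. Counts were whole numbers as deposited, so that rounding changed 0 of them. Transcript lengths implied by counts and TPM matched a single annotated transcript within 0.01 on the log2 scale for 95.4% of values in 239 genes. All 80 value columns were assigned to samples by title.

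Differential expression was tested with edgeR 4.0.16 (R 4.3.3): TMM scaling, 8 group means, robust quasi-likelihood F-tests, two-sided, on 13543 genes with 1 CPM or more in at least 5 of 40 libraries, to which at least 99.8% of all counts belonged. P-values were adjusted by Benjamini-Hochberg over all genes tested. There were 15 contrasts. After the values were seen, 2 interactions (rapamycin by age in TSCmKO, genotype by age under rapamycin) and the unfiltered fit for Runx3 were added. DESeq2 1.42.0 and limma 3.58.1, the latter on log2(TPM + 1) and log2(TPM + 0.1), gave alternatives. The members, gene lists and tests were chosen with earlier results of these data known. Named genes were the members, Tsc1, the genes of most similar pattern (mean of 5 CPM or more), and, as examples from the lists of partners and of denervation, skeletogenic and myeloid genes, the highest and lowest called at 9 months, with Chrng and Myog. Markers at 0 or alone past the filter, Myh8, Ep300 and Kat6a were added after their values were seen. A gene that the rule would name from the partner lists is not reported here. Itgam, a symbol of 2 entries, was left out of the myeloid list. Marker sums for satellite cells, fibroblasts, tendon, Schwann cells, adipocytes and endothelium served as context. In 9mTSCmKO against 9mCON the fibroblast list had 6 of 8 lower and the tendon list 5 of 8 lower, the Schwann list 2 of 8 lower, the adipocyte list 2 of 7 lower, the endothelial list 2 of 5 lower and the satellite cell list 1 higher and 1 lower of 7, where 37.9% of all genes were called.

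Confidence intervals are at 95%. Total counts of 8883870 to 35224669 per library put 1 count at up to 0.112 CPM. Replicates are separate mice per the labels, and replicate pairs differed by more than counting noise.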

Additional observations from a re-analysis of the deposited data

Results flagged for a closer look

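Runx1t1 in replicate 2 of 3mCON+RM, at 2.84 CPM, stood below the 5.73 to 6.69 CPM of the other libraries of its group by more than Dixon's limit for a gap. Runx1t1 in replicate 5 of 3mTSCmKO+RM, at 6.76 CPM, stood above the 4.37 to 4.91 CPM of the others by the same measure. Among 40 sets of 5 libraries examined (5 members in 8 groups), 2 held such a value, and chance gives about 1 in 20.

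The genotype effect on Runx1 differed between 9 and 3 months, by 2.17 on the log2 scale (adjusted p = 6.64e-05, edgeR's quasi-likelihood test). In 9mTSCmKO 5 of 5 libraries stood above every 9mCON library. The effect of rapamycin on Cbfb at 3 months was lower in TSCmKO than in CON by -0.93 (adjusted p = 0.0116), a call that limma on TPM did not make (adjusted p = 0.0645 and 0.0677 with pseudocounts of 1 and 0.1). In TSCmKO the effect differed between 9 and 3 months by 1.16 (adjusted p = 0.00346), in a comparison added after the values were seen. All 5 3mTSCmKO+RM libraries lay below every 3mTSCmKO library, and 9mTSCmKO+RM overlapped 9mTSCmKO. Of 25 differences of this kind computed for the 5 members, these 3 passed the edgeR test. In the filtered fit the 5 interactions called 0.222% to 4.94% of all genes tested. The differences for Runx3 came from the fit without a filter, and 2 of the 5 interactions were added after the values were seen.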

How the results depend on the processing

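Values are log2 changes with adjusted p. The fit with insert size as a term left out 9mTSCmKO+RM replicate 5, which has none on the labels, so that 2 choices changed at once. Leaving out that library alone also lost the calls of Runx2 (0.74, 0.0803) and Cbfb (-0.36, 0.0987) in treated TSCmKO against CON at 9 months. For the members and for the counts of 3 gene lists, no alternative turned the direction of a call. Size factors of DESeq2, upper-quartile scaling and edgeR's own filter changed the call of 0 of 85 results each. Fits of only the groups compared changed the most calls, with 5 lost and 3 gained of 85, and the cause was not tested.

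Runx1 lowered by rapamycin in 9mTSCmKO gave -0.68 (0.0590) in a fit of only these groups and -0.83 to -0.52 without 1 library. For Runx2 with age in CON, DESeq2 gave -1.13 (0.0277) and limma on log2(TPM + 0.1) -0.95 (0.0450), and 9 of 40 fits without 1 library called it, with values of -1.22 to -1.06. Runx2 in treated TSCmKO against CON at 9 months gave 0.83 (0.0553) with no filter, 0.84 (0.0564) in only these groups, 0.71 (0.0926) with insert size as a term, and 0.70 to 0.94 without 1 library. Cbfb in that comparison gave -0.41 (0.0634) with no filter, -0.40 (0.0918) in only these groups, -0.33 (0.121) with insert size, -0.34 (0.15) by limma with either pseudocount, and -0.50 to -0.33 without 1 library. Cbfb between genotypes at 9 months ranged from -0.49 to -0.21 without 1 library, and its genotype by age difference from -0.78 to -0.51, called without 9mCON replicate 1 or 9mTSCmKO replicate 5. In fits of only the groups compared, Cbfb under rapamycin in 3mCON (-0.31, 0.0453), Runx1t1 between genotypes at 3 months (-0.55, 0.0101) and Runx1t1 in treated TSCmKO against CON at 3 months (-0.44, 0.0371) were called. The rapamycin by genotype difference of Cbfb at 3 months was -0.82 (0.0645) and -0.83 (0.0677) by limma with pseudocounts of 1 and 0.1. The rapamycin by age difference of Runx1 in TSCmKO was called by DESeq2 (-1.03, 0.0443) and by limma on log2(TPM + 1) (-0.93, 0.0499), and ranged from -1.18 to -0.88 without 1 library, called without 9mTSCmKO replicate 5. The genotype by age difference of Runx1 under rapamycin was called by DESeq2 (1.25, 0.0410) and ranged from 1.11 to 1.41, called without 9mTSCmKO+RM replicate 1.

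Runx3 gave 1.30 (0.119) between genotypes at 9 months and -1.38 (0.0775) under rapamycin in only the groups compared, and 0.99 to 1.58 and -1.53 to -1.03 without 1 library. Of RUNX partners, 3 were called between genotypes at 9 months in only these groups (4 to 12 without 1 library), and 2 under rapamycin in only these groups and by limma (3 to 9 without 1 library). Of Runx1t1 partners, 1 was called between genotypes in only these groups, and under rapamycin 2 in only these groups and 3 by limma (3 to 6 without 1 library). Of denervation genes, 10 were called between genotypes in only these groups.

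Over all genes, fits of only the groups compared called 2710 genes between genotypes at 9 months (5133 in the fit of all groups), 2512 under rapamycin in 9mTSCmKO (4410), 580 in 9mCON (1604), 378 in 3mCON (92), 2563 between genotypes under rapamycin at 3 months (1359), 3740 in treated TSCmKO against CON at 3 months (2260) and 34 with age in CON (138). They called 310 for the genotype by age difference (669), 201 and 1178 for rapamycin by genotype at 9 and 3 months (660 and 467), 105 for rapamycin by age (259) and 47 for genotype by age under rapamycin (30). With insert size, 1702 were called with age in TSCmKO (5064) and 25 in CON. DESeq2 called 375 with age in CON, 181 under rapamycin in 3mCON, 494 for rapamycin by age and 85 for genotype by age under rapamycin. With no filter these were 83 with age in CON, 38 in 3mCON, 141 for rapamycin by age and 435 for rapamycin by genotype at 9 months. Limma on log2(TPM + 1) called 215 with age in CON and 52 for genotype by age under rapamycin, and with a pseudocount of 0.1 it called 312 for rapamycin by genotype at 3 months and 148 for rapamycin by age. By limma 61.6% of calls between genotypes at 9 months were higher, against 50.3% by edgeR. Upper-quartile scaling gave 55.7% higher calls under rapamycin in 3mTSCmKO (44.9% by TMM) and 27.7% for rapamycin by age (43.2%).

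Replicate numbers did not pair the mice: 0 to 3 of 5 same-numbered pairs correlated above 0.1, and 0 to 3 of 5 libraries correlated best with their own number. With a replicate block Runx2 with age in CON was called (-1.14, 0.0446), and no other call of the 85 changed. Runx2 and Runx3 are limited by depth.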
